A study of Saccharomyces cerevisiae with 8 samples.

Results

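Genes of *S. cerevisiae* that code for hydrophilins and for proteins of stationary-phase and stress survival, 10 in number, were followed across 8 growth conditions. The 10 genes were *SIP18* (YMR175W), *GRE1* (YPL223C), *HSP12* (YFL014W), *STF2* (YGR008C), *SPG1* (YGR236C), *SPG4* (YMR107W), *DDR2* (YOL052C-A), *MSC1* (YML128C), *RGI1* (YER067W) and *RGI2* (YIL057C), out of 6152 open reading frames (ORFs) on the arrays. They were chosen by their values after 1 h, since their ratios were much higher with ethanol than without it and several of these differences were unequal between the strains. The 1 h ethanol differences are therefore given as a description and support nothing. All 10 genes had a value in every condition, so no filter on low values removed any of them. Their systematic names place *SIP18*, *SPG4* and *MSC1* on chromosome XIII, *SPG1* and *STF2* on VII, and the others on V, VI, IX, XV and XVI.

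RNA was compared between CECT10094, a flor wine strain from Spain that tolerates ethanol well and that the sample labels call PE35M, and Temohaya-MI26, an agave fermentation strain from Mexico that tolerates it less. Both strains grew in GPY medium with 0 or 10% (v/v) ethanol and were sampled early, after 1 h, and late. The late samples without ethanol were taken at 10 h, those of CECT10094 with ethanol at 28 h and those of Temohaya-MI26 with ethanol at 40 h. Ethanol and hours in culture cannot be told apart in the late comparison, and the labels place the late cells in exponential phase where the study's text places them after it. Cy5-labelled cDNA of each sample was hybridised against a Cy3-labelled pool of RNA from every sample, without a dye swap, and 3 replicate slides per condition were combined by their median, so that 24 slides became 8 columns of log2 ratios. A condition therefore has no error of its own here, and precision is limited by how many arrays were made. Columns held 5612 to 6115 ORFs with medians between -0.22 and 0.32. The lowest correlation between columns was -0.36, between Temohaya-MI26 at 1 h with ethanol and CECT10094 at 1 h without it, and the direction of the ratios was kept because the methods state the dyes.

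Hydrophilins are small, very hydrophilic and glycine-rich proteins that accumulate when cells lose water and that protect other proteins and membranes from drying. In yeast many of them, like other stress genes, are switched on by the transcription factors Msn2 and Msn4, which enter the nucleus when cells meet heat, ethanol, osmotic stress or a lack of glucose. The same genes become active as cultures use up glucose, switch to respiration and enter stationary phase. Log2 ratios below 0, called below the pool here, mean that the normalized sample signal was lower than the pool signal of the same spot. They are not read as amounts of RNA relative to the pool.

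Without ethanol at 1 h, the 10 genes were among the lowest ORFs of the array in both strains. Their median log2 ratio to the pool was -3.36 in CECT10094, where that of all ORFs was -0.22, and -3.23 in Temohaya-MI26, where it was -0.11, and all 10 genes lay in the lowest 10% of ORFs of either column. With ethanol at 1 h the median was -1.15 in CECT10094, where 8 of the 10 genes were still below the pool, and 0.46 in Temohaya-MI26, where 7 were above it and 5 lay in the highest 10% of ORFs. In the late samples the median was -1.96 without and -2.80 with ethanol in CECT10094, and -1.72 without and -1.59 with ethanol in Temohaya-MI26. At least 9 of the 10 genes were below the pool in each late column. Spot signals were not part of the values, so whether a very low ratio lies close to the background of its slides is unknown.

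**Figure D1:**
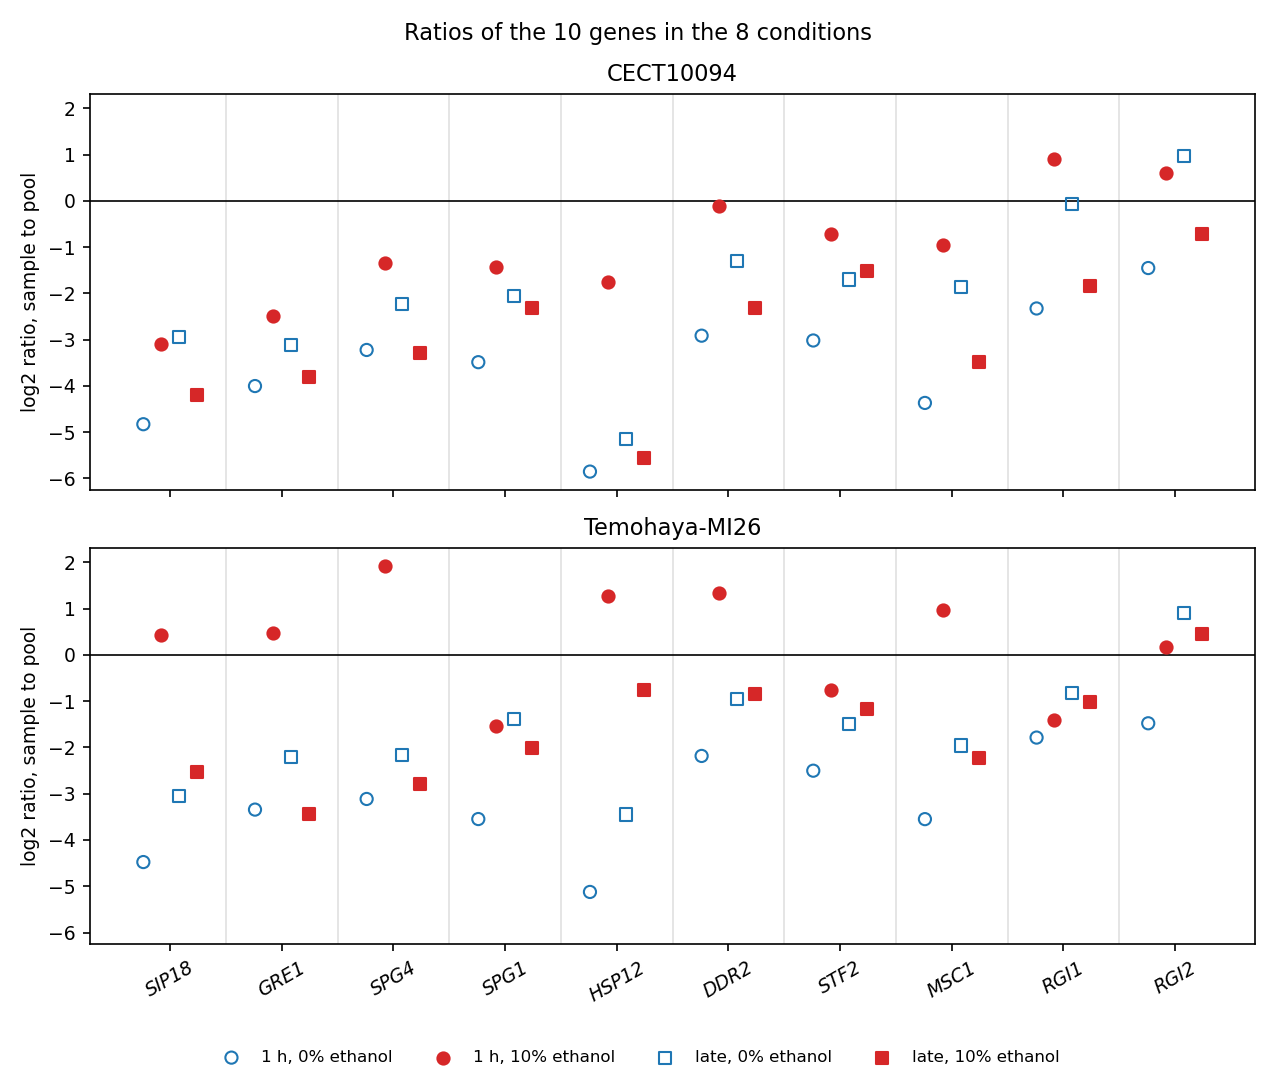
Log2 ratio of sample to pool (y axis) of the 10 genes (x axis) in CECT10094 (top) and Temohaya-MI26 (bottom). Each point is 1 column, the median of 3 slides. Circles stand for 1 h and squares for the late stage, open blue for 0% and filled red for 10% ethanol. The filled circles of Temohaya-MI26 lie above the line of 0 for 7 genes, and in CECT10094 for *RGI1* and *RGI2*.

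*HSP12*, a small hydrophilin that binds and stabilises membranes, covered the widest range of the 10 genes, 7.13 on the log2 scale. In CECT10094 its log2 ratio was -5.85 at 1 h without ethanol, -1.76 at 1 h with ethanol, -5.14 late without ethanol and -5.55 late with ethanol. In Temohaya-MI26 the same values were -5.12, 1.27, -3.45 and -0.76. Each strain was highest at 1 h with ethanol. Late with ethanol Temohaya-MI26 held the next highest of the 8 values, whereas CECT10094 was close to its level at 1 h without ethanol. The ethanol difference at 1 h was 4.10 (17.1-fold) in CECT10094 and 6.396 (84.2-fold) in Temohaya-MI26.

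*SIP18* and *GRE1*, a pair of paralogous hydrophilins made under osmotic stress and drying, differed between strains chiefly at 1 h with ethanol. *SIP18* had log2 ratios of -4.83 and -3.10 at 1 h without and with ethanol in CECT10094, and of -2.95 and -4.19 in the late samples. Temohaya-MI26 had -4.48 and 0.44 at 1 h, and -3.05 and -2.52 late. A single column, Temohaya-MI26 at 1 h with ethanol, was above the pool for *SIP18*, and the other 7 were at or below -2.52. For *GRE1* the values of CECT10094 were -4.004 and -2.49 at 1 h and -3.12 and -3.81 late, without and with ethanol in this order. Those of Temohaya-MI26 were -3.34 and 0.47 at 1 h and -2.21 and -3.44 late. *GRE1* thus showed the same single column above the pool, and its other columns ranged from -4.004 to -2.21. The 1 h ethanol difference was 1.73 (3.32-fold) in CECT10094 and 4.91 (30.1-fold) in Temohaya-MI26 for *SIP18*, and 1.51 (2.86-fold) and 3.82 (14.1-fold) for *GRE1*. On spotted probes, RNA of one paralog can bind to the other's spot, which was not tested here for *SIP18* and *GRE1* or for *RGI1* and *RGI2*.

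*STF2*, a hydrophilin that also stabilises the inhibitor complex of the mitochondrial ATP synthase, stayed below the pool in all 8 columns. Its log2 ratios in CECT10094 were -3.02 and -0.73 at 1 h, and -1.70 and -1.51 late, without and with ethanol. In Temohaya-MI26 they were -2.50 and -0.76 at 1 h, and -1.49 and -1.17 late. The strains were within 0.55 of each other in the size of the 1 h ethanol difference, which was 2.29 (4.90-fold) in CECT10094 and 1.74 (3.35-fold) in Temohaya-MI26.

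*SPG4* and *SPG1* are needed for survival at high temperature in stationary phase. *SPG4* had log2 ratios of -3.22 and -1.35 at 1 h and -2.24 and -3.28 late in CECT10094, without and with ethanol. In Temohaya-MI26 they were -3.11 and 1.93 at 1 h and -2.16 and -2.79 late. The value of 1.93 was the highest of all 80 ratios of the 10 genes, and it was 5.04 (33.0-fold) above the same strain without ethanol, against 1.88 (3.68-fold) in CECT10094. *SPG1* gave -3.49 and -1.42 at 1 h and -2.07 and -2.32 late in CECT10094. The values of Temohaya-MI26 were close to these, with -3.55 and -1.54 at 1 h and -1.38 and -2.01 late. *SPG1* was below the pool in all columns, and its 1 h ethanol difference was 2.07 (4.18-fold) in CECT10094 and 2.01 (4.02-fold) in Temohaya-MI26.

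*DDR2* responds to many stresses, DNA damage among them, and *MSC1* is a stress-responsive gene whose product is of unknown biochemical function. *DDR2* had log2 ratios of -2.92 and -0.12 at 1 h and -1.29 and -2.31 late in CECT10094, and of -2.18 and 1.33 at 1 h and -0.95 and -0.84 late in Temohaya-MI26. For *MSC1* they were -4.37 and -0.95 at 1 h and -1.86 and -3.49 late in CECT10094, and -3.55 and 0.97 at 1 h and -1.96 and -2.23 late in Temohaya-MI26. Both genes were highest at 1 h with ethanol in either strain and above the pool only there, in Temohaya-MI26. The 1 h ethanol difference of *DDR2* was 2.79 (6.94-fold) in CECT10094 and 3.51 (11.4-fold) in Temohaya-MI26, and that of *MSC1* was 3.42 (10.7-fold) and 4.52 (22.9-fold).

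*RGI1* and *RGI2*, paralogs with a role in energy metabolism during respiratory growth, showed another pattern. *RGI1* had log2 ratios of -2.33 and 0.89 at 1 h and -0.07 and -1.85 late in CECT10094, without and with ethanol. In Temohaya-MI26 they were -1.79 and -1.42 at 1 h and -0.82 and -1.01 late. Its highest column was CECT10094 at 1 h with ethanol, and no column of Temohaya-MI26 reached the pool. *RGI2* gave -1.45 and 0.60 at 1 h and 0.97 and -0.72 late in CECT10094, and -1.48 and 0.17 at 1 h and 0.90 and 0.45 late in Temohaya-MI26. The highest *RGI2* ratio of both strains was in the late sample without ethanol. The 1 h ethanol difference of *RGI1* was 3.22 (9.32-fold) in CECT10094 and 0.37 (1.29-fold) in Temohaya-MI26, and that of *RGI2* was 2.05 (4.14-fold) and 1.65 (3.14-fold).

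A difference between columns was called when its distance from the mean over all ORFs exceeded 1.96 standard deviations. This threshold of the study's methods marks the ends of a distribution and is not a test. At 1 h, 5 of the 10 genes were called higher with ethanol in CECT10094 (*HSP12*, *MSC1*, *RGI1*, *DDR2* and *STF2*), where 2.18% of all ORFs were called higher and 3.53% lower. In Temohaya-MI26 6 were called higher (*HSP12*, *SPG4*, *SIP18*, *MSC1*, *GRE1* and *DDR2*), where 2.74% of ORFs were called higher and 3.08% lower. Since these differences chose the genes, nothing is read from either count. The upper limit was 2.291 in CECT10094, where *STF2* at 2.293 was just past it and *SPG1* at 2.07 fell short, and 2.07 in Temohaya-MI26, where *DDR2* at 3.51 was the lowest gene past it and *SPG1* at 2.01 fell short. The median difference of the 10 genes was 2.18 in CECT10094 (0.42 for all ORFs) and 3.66 in Temohaya-MI26 (-0.08 for all ORFs). Only *HSP12*, *DDR2* and *MSC1* were called in both strains, among 62 ORFs that were.

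Taking the strains against each other at 1 h, the ethanol difference was larger in Temohaya-MI26 for 6 genes and in CECT10094 for 4. The contrast, CECT10094 minus Temohaya-MI26, was -3.18 for *SIP18*, -3.17 for *SPG4*, -2.302 for *GRE1* and -2.3 for *HSP12*, the 4 lowest of the 10 genes. That of *RGI1*, 2.85, was the highest. Those of *SPG1*, *RGI2* and *STF2* were 0.06, 0.40 and 0.55, and relative to the median of all ORFs, 0.44, 8 genes were lower and 2 (*RGI1* and *STF2*) higher. No test of these contrasts was possible with 1 column per condition.

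**Figure D2:**
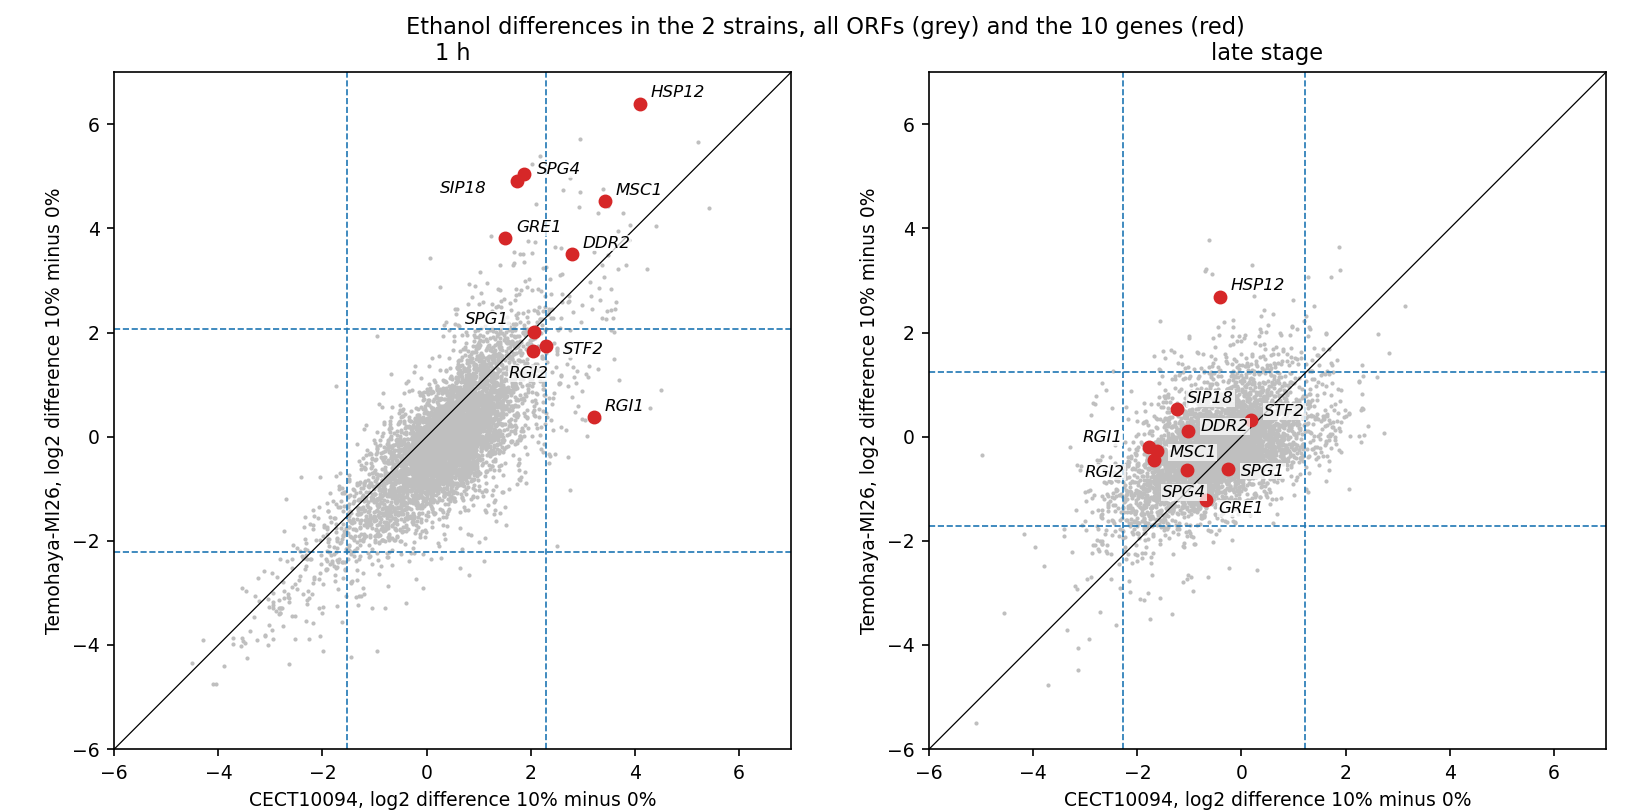
Log2 difference 10% minus 0% ethanol in CECT10094 (x axis) and Temohaya-MI26 (y axis) at 1 h (left) and late (right), with all ORFs in grey and the 10 genes in red. Dashed lines are the limits of 1.96 standard deviations around the mean of all ORFs and the diagonal marks equal differences. At 1 h all 10 genes lie to the right of and above 0, while late only *HSP12* lies past a limit, in Temohaya-MI26.

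The late ethanol comparison used columns that took no part in the choice of the genes. In CECT10094 none of the 10 genes passed the threshold, where 2.76% of ORFs were called higher and 2.85% lower. Of the 10 differences, 9 were below 0, but all ORFs were shifted the same way, with a median of -0.51. Relative to that median 7 of the 10 were lower, and the median of the 10 genes was -1.03. *RGI1* differed by -1.78, *RGI2* by -1.69, *MSC1* by -1.63, *SIP18* by -1.24, *SPG4* by -1.05 and *DDR2* by -1.02. *GRE1* (-0.69), *HSP12* (-0.41), *SPG1* (-0.26) and *STF2* (0.19) lay nearer 0, and with columns centred on their medians *HSP12* and *SPG1* were at 0.07 and 0.22. The lower limit of the call was -2.27.

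In Temohaya-MI26 1 of the 10 genes, *HSP12*, was called higher late with ethanol, by 2.69 (6.46-fold), where 3.04% of ORFs were called higher and 2.51% lower. That difference was also called with columns centred on their medians (2.87) and after quantile normalization (3.01). The other 9 genes lay within the limits of -1.71 and 1.25, from -1.23 for *GRE1* to 0.53 for *SIP18*. The median of the 10 genes was -0.23, against -0.25 for all ORFs. *SPG4* (-0.63), *SPG1* (-0.63), *RGI2* (-0.45), *MSC1* (-0.27) and *RGI1* (-0.19) were below 0, and *STF2* (0.32) and *DDR2* (0.11) above it.

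A late ethanol change common to both strains was tested with limma on the 4 late columns, with strain as a block and p adjusted by the Benjamini-Hochberg method over 5474 ORFs. The other strain is the only repeat in this fit, so its p does not measure the spread between cultures, and all ORFs shared one standard deviation of 0.424. None of the 10 genes reached an adjusted p under 0.05 in limma, where 1.85% of ORFs were called higher and 11.9% lower. At an unadjusted p under 0.05 in limma, 1 of the 10 was higher and 5 were lower, where 4.4% of all ORFs were higher and 22.4% lower. The common change was -1.07 ± 0.42 (SE) for *RGI2* (limma, adjusted p = 0.072), -0.98 for *RGI1* (0.104), -0.96 for *GRE1* (0.117), -0.95 for *MSC1* (0.120) and -0.84 for *SPG4* (0.181), each with the same error. For *HSP12* it was 1.14 (limma, adjusted p = 0.0508), a mean of -0.41 in one strain and 2.69 in the other that neither strain showed. *DDR2* (-0.46), *SPG1* (-0.44), *SIP18* (-0.36) and *STF2* (0.25) had adjusted p between 0.537 and 0.752 in limma.

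The strain gap across both late ethanol levels was tested in the same fit with ethanol as the block. The fitted gap, CECT10094 minus Temohaya-MI26, was below 0 for all 10 genes. The share of all ORFs with a fitted gap below 0 is not given, so nothing is read from this count. In the single late gaps, which are a different measure, 48.4% of all ORFs were below 0 without ethanol and 64.4% with it. Of the 10 genes 1, *HSP12*, was called lower in the fit, where 0.694% of ORFs were called lower and 0.0913% higher. *HSP12* was lower by 3.24 on the log2 scale (SE 0.42, limma adjusted p = 1.37e-10). Its gap was -1.69 without and -4.79 with ethanol, and the small p rests on the shared standard deviation. The call was lost with columns centred on their medians (-3.19, SE 0.60, limma adjusted p = 0.441), after quantile normalization (-2.14, limma adjusted p = 0.828) and with all 8 columns in the fit (-3.24, SE 0.64, limma adjusted p = 0.107). Quantile normalization sets values by rank, and *HSP12* was the lowest ORF in both late columns of CECT10094, which limits its gap. *DDR2* had a gap of -0.91 (limma, unadjusted p = 0.032, adjusted p = 0.813). The gaps of the other 8 genes ran from -0.78 for *SIP18* to -0.05 for *RGI1*, and after quantile normalization *SIP18*, *GRE1*, *SPG4*, *MSC1* and *RGI1* were above 0.

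Strain gaps column by column placed these values in the course of the cultures. At 1 h without ethanol none of the 10 genes was called between strains (2.26% of ORFs called higher in CECT10094, 2.86% lower), and the gaps, CECT10094 minus Temohaya-MI26, ran from -0.82 for *MSC1* to 0.06 for *SPG1*. At 1 h with ethanol *SIP18*, *SPG4*, *HSP12*, *GRE1*, *MSC1* and *DDR2* were called lower in CECT10094, by 3.53 to 1.45, and *RGI1* higher by 2.31 (2.66% of ORFs called lower, 2.53% higher). These gaps share their columns with the differences that chose the genes. Late without ethanol, *HSP12* alone was called, with -1.69 (2.47% of ORFs called lower, 2.95% higher), and after quantile normalization it was within the limits at -0.63. *HSP12* was the lowest ORF of CECT10094 there and at percentile 0.04 in Temohaya-MI26, so scaling by rank allowed only a small gap. Of the 10 gaps late without ethanol, 6 were below 0, as were 48.4% of those of all ORFs. *GRE1* (-0.91) lay near the limit of -0.95, followed by *SPG1* (-0.69), *DDR2* (-0.35), *STF2* (-0.21) and *SPG4* (-0.08), while *RGI1* was at 0.75, *SIP18* and *MSC1* at 0.10 and *RGI2* at 0.07. Late with ethanol, all 10 genes were lower in CECT10094, with *HSP12* (-4.79) and *SIP18* (-1.67) past the limit of -1.56 (2.96% of ORFs called lower, 2.32% higher). *DDR2* followed with -1.48, *MSC1* with -1.26 and *RGI2* with -1.17. After quantile normalization *HSP12* was still called (-3.64), *SIP18* was not (-0.33), and *GRE1* (1.28), *SPG4* (0.71), *SPG1* (0.50) and *MSC1* (0.16) were above 0. All ORFs had a median of -0.22 in that comparison before this scaling, with 64.4% of them below 0. The hours in culture were 28 and 40, so strain and hours cannot be told apart there.

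Comparing the late sample with the 1 h sample of the same strain and ethanol level gave mostly opposite signs without and with ethanol. These differences share the 1 h columns with the choice of the genes and are a description. Without ethanol all 10 genes were higher late than at 1 h in both strains, as were 76.0% of all ORFs in CECT10094 and 68.8% in Temohaya-MI26. The median of the 10 genes was 1.52 in CECT10094 (0.58 for all ORFs) and 1.33 in Temohaya-MI26 (0.43 for all ORFs). With columns centred on their medians all 10 genes were still higher. After quantile normalization *GRE1* (-0.58) and *SPG4* (-0.10) of CECT10094 were below 0. So were *SIP18* (-0.09), *GRE1* (-0.30) and *SPG4* (-0.32) of Temohaya-MI26. *HSP12* of CECT10094 was then at 0, which was fixed by its rank, since it was the lowest ORF of both columns. *RGI2* was higher by 2.43 and 2.38, *MSC1* by 2.51 and 1.59, *SPG1* by 1.42 and 2.17, and *RGI1* by 2.26 and 0.97. Of the 10, *MSC1* was called in CECT10094 (2.89% of ORFs called higher, 2.86% lower) and none in Temohaya-MI26 (2.57% higher, 3.30% lower).

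With ethanol, all 10 genes were lower late than at 1 h in CECT10094 and 8 of them in Temohaya-MI26, where 71.5% and 36.6% of all ORFs were. In CECT10094 *HSP12* (-3.79), *RGI1* (-2.74), *MSC1* (-2.54), *DDR2* (-2.19) and *SPG4* (-1.94) were called lower (2.34% of ORFs called lower, 3.48% higher). In Temohaya-MI26 *SPG4* (-4.72), *GRE1* (-3.91), *MSC1* (-3.20), *SIP18* (-2.96), *DDR2* (-2.16) and *HSP12* (-2.03) were called lower (2.18% of ORFs called lower, 3.12% higher). *SPG1* (-0.46), *STF2* (-0.41), *RGI2* (0.28) and *RGI1* (0.41) lay closest to 0 there. The medians of the 10 genes were -1.63 and -2.10, against -0.32 and 0.23 for all ORFs.

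The late level with ethanol nevertheless stood above the 1 h level without ethanol for 9 of the 10 genes in each strain, where 55.1% of all ORFs did so in CECT10094 and 58.0% in Temohaya-MI26. The 1 h column without ethanol took part in the choice of the genes, which were low there, so nothing is read from this count. The median of the difference was 0.62 in CECT10094 (0.08 for all ORFs) and 1.34 in Temohaya-MI26 (0.15 for all ORFs). After quantile normalization 5 and 6 of the 10 genes were above 0, with medians of 0.05 and 0.03. *HSP12* of Temohaya-MI26 had the highest value, 4.37. The exceptions were *SPG4* in CECT10094 (-0.06) and *GRE1* in Temohaya-MI26 (-0.09).

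**Figure D3:**
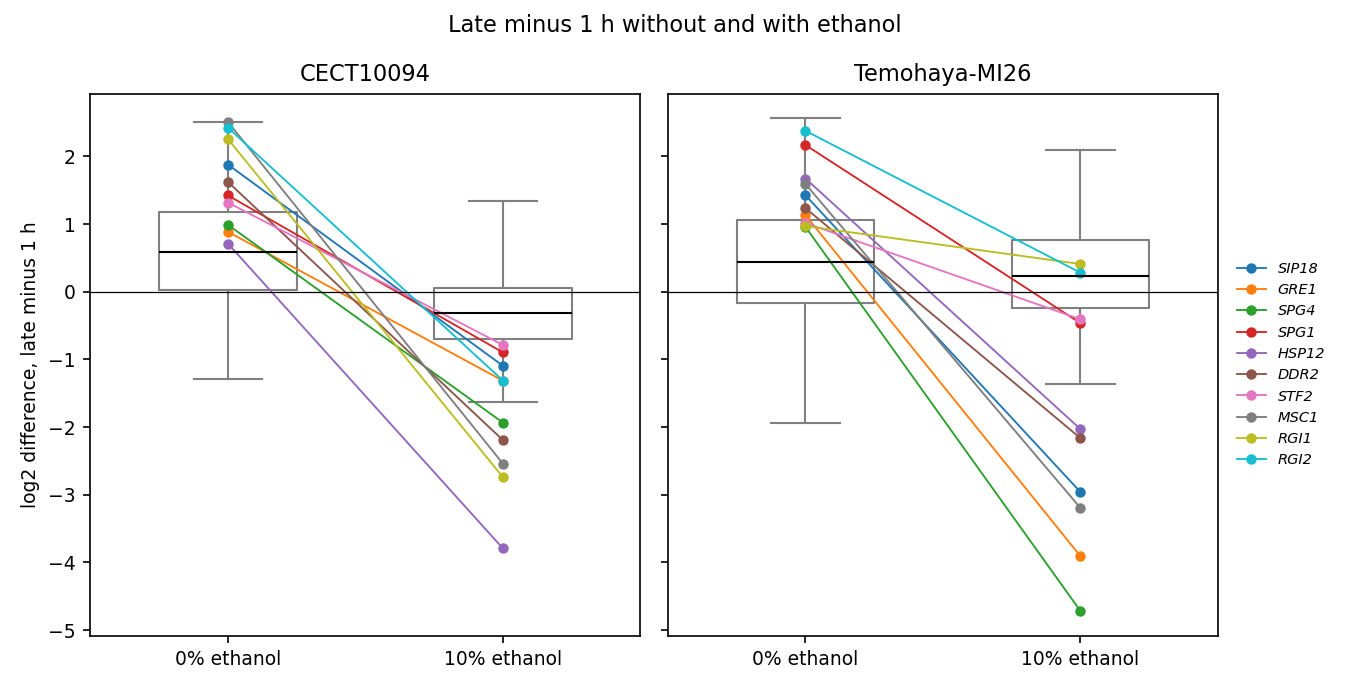
Log2 difference late minus 1 h (y axis) at 0 and 10% ethanol (x axis) in CECT10094 (left) and Temohaya-MI26 (right). Each coloured line joins the 2 values of 1 gene, and boxes give the quartiles and median of all ORFs with whiskers at the 2.5 and 97.5 percentiles. All points at 0% lie above 0, and at 10% only *RGI1* and *RGI2* of Temohaya-MI26 do.

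The ratios were also averaged on the linear scale over the 8 columns, since the reference was a pool of all samples. The study describes about equal amounts of each sample in it, so ratios that track RNA amount would have a mean near 1. The mean ratio of the 10 genes was far below 1 for most of them. *SPG1* had a mean of 0.246, the lowest of 5359 ORFs with values in all columns, and *SIP18* with 0.254 was the next lowest. *GRE1* (0.278) ranked 4 and *STF2* (0.370) ranked 10 from the bottom, followed by *MSC1* (0.431) and *HSP12* (0.436). *RGI1* (0.627), *SPG4* (0.639) and *DDR2* (0.684) were also below the 5th percentile of all ORFs, 0.722, whereas *RGI2* (1.15) was near the median of 1.06. *SPG1* and *STF2* never exceeded a ratio of 0.384 and 0.605 in any column. Of 59 other ORFs called higher at 1 h in both strains, 50 had a mean below 1, against 37.8% of all ORFs, and their median was 0.758. Why a gene lay below the pool in nearly all columns was not tested.

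**Figure D4:**
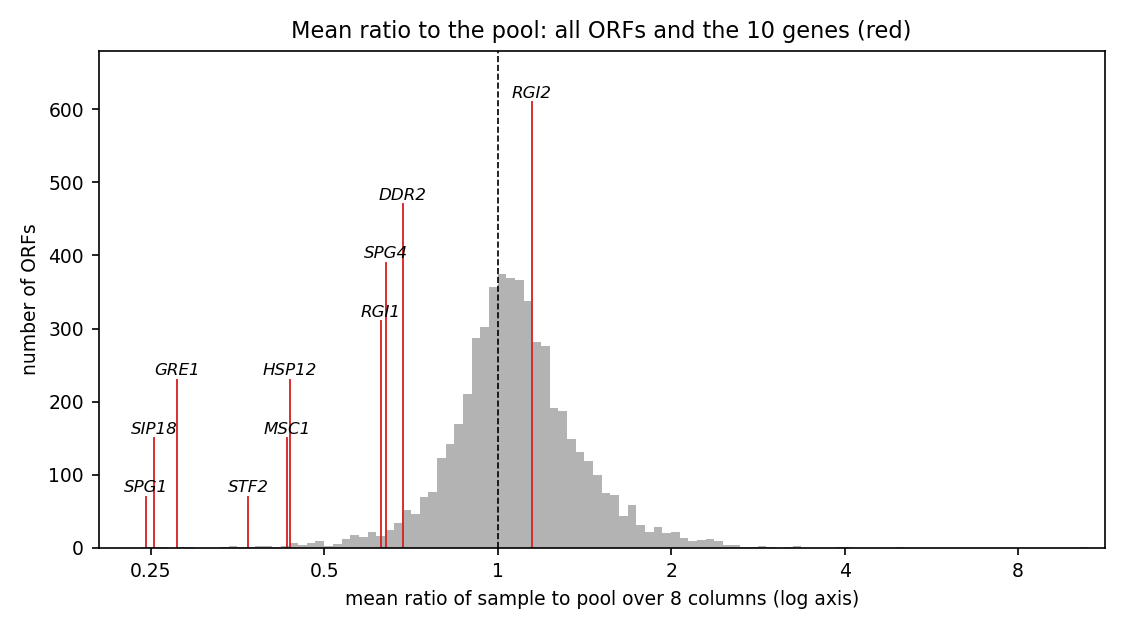
Number of ORFs (y axis, grey bars) by their mean ratio of sample to pool over 8 columns (x axis, log scale). Red lines mark the 10 genes, and their heights only separate the names. The dashed line is a ratio of 1, and 9 of the 10 genes lie to its left.

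Further genes of the same stress programme were summarised as lists of known members. Among 5 paralogs and other hydrophilins none was called at 1 h in either strain, and their median difference was 0.52 in CECT10094 and 0.02 in Temohaya-MI26, close to all ORFs. *TMA10*, the paralog of *STF2*, differed by 1.79 and 1.12, and *HOR7*, the paralog of *DDR2*, by 0.52 and 0.80. Late, none of the 5 was called with ethanol, and *TMA10* was at -0.53 in CECT10094 and 1.23 in Temohaya-MI26. Its late strain gap with ethanol was -2.48 and was called lower in CECT10094, as that of *HSP12* was.

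Of 8 other stationary-phase genes, 3 were called higher at 1 h in CECT10094 and 4 of the 6 measured in Temohaya-MI26, where 2.18% and 2.74% of all ORFs were. The medians of the list were 1.79 and 2.23, those of all ORFs 0.42 and -0.08. *SPI1*, a cell wall protein of stationary phase, differed by 3.91 and 4.06. *YGP1*, a secreted glycoprotein made when nutrients run out, differed by 3.22 in CECT10094 and had no value for this in Temohaya-MI26. *SPG5* differed by 2.59 in CECT10094 and by 1.16, within the limits, in Temohaya-MI26. In Temohaya-MI26 *FMP45*, a membrane protein with a role in sporulation, differed by 2.71, *PAI3*, an inhibitor of a vacuolar protease, by 2.33 and the Hsp70 chaperone gene *SSA3* by 2.12. In CECT10094 these genes were within the limits but also above 0, at 1.72, 1.72 and 1.12. Late, *YGP1* was the 1 gene called in each strain, higher by 1.89 in CECT10094 and by 3.20 in Temohaya-MI26, where none of the 10 genes but *HSP12* was called.

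Among 20 other targets of Msn2 and Msn4, 7 of the 15 measured were called higher at 1 h in CECT10094 and 9 of 18 in Temohaya-MI26, against the same shares of all ORFs. The medians of the list were 2.18 and 1.88, beside 0.42 and -0.08 for all ORFs. The small chaperone genes *HSP26* (5.42 and 4.40) and *HSP42* (4.24 and 3.23) and *TFS1*, a protease inhibitor (3.77 and 4.30), were among the largest in both strains. The disaggregase gene *HSP104* (3.18 and 2.45) was also called in both. The aldehyde dehydrogenase gene *ALD3* was called in Temohaya-MI26 (5.38) and within the limits in CECT10094 (2.18). Late, none of 17 was called in CECT10094. In Temohaya-MI26 *CTT1*, the cytosolic catalase gene, was called higher (1.98) and *TFS1* lower (-1.85) among 19. Without ethanol, late minus 1 h, 5 of 16 were called higher in CECT10094, led by *TFS1* (3.94), the glycerol synthesis gene *GPD1* (3.23), the glycogen synthase gene *GSY2* (2.86) and *PGM2* (2.68), and 2 of 19 in Temohaya-MI26, *TFS1* (3.69) and *HSP26* (3.16), where 2.89% and 2.57% of all ORFs were.

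Transcripts of 12 regulators of these programmes differed little at 1 h. None was called in either strain, and their medians, 0.43 and -0.07, lay beside those of all ORFs, 0.42 and -0.08. Late, *MSN4* was called higher with ethanol in both, by 1.39 in CECT10094 and 2.50 in Temohaya-MI26. The arrays measured RNA, and where the Msn2 and Msn4 proteins were in the cell was not measured.

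Correlations among the 10 genes are a description, since the 1 h columns that chose the genes are among the 8 columns used. Both high and low r can follow from that choice. Over the 8 columns, Pearson's r of the 45 pairs had a median of 0.781 and ran from 0.184 for *RGI1* with *GRE1* to 0.988 for *MSC1* with *DDR2*. *SPG4* and *GRE1* followed each other closely, *GRE1* and its paralog *SIP18* with 0.915, *STF2* and *SPG1* with 0.909, and the paralogs *RGI1* and *RGI2* with 0.781. *RGI1* correlated with *HSP12*, *SIP18*, *SPG4* and *GRE1* at 0.311 or less. All pairs share the same 8 columns and the same pool.

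Among 484 ORFs with a standard deviation over columns of at least 1, those most like the mean profile of the 10 genes were *YNR071C* (0.982), *ADE6* (0.981), *UIP4* (0.969), *CAK1* (0.969), *YBR116C* (0.964), *SPI1* (0.961), *ALD3* (0.959), *FMP16* (0.958), *HSP33* (0.955) and *DCS2* (0.954), by Pearson's r over 8 columns. Their ethanol differences at 1 h were between 1.40 for *CAK1* and 4.41 for *HSP33* in CECT10094, and between 2.58 for *YNR071C* and 5.38 for *ALD3* in Temohaya-MI26. The 1 h columns that chose the 10 genes enter every profile here, so such 1 h differences partly follow from the choice. Single genes had nearest profiles of their own. *HSP12* was closest to *YFL012W-A* (0.991), an ORF that its name also places on the left arm of chromosome VI and whose late ethanol difference was 1.93 in Temohaya-MI26 and -1.01 in CECT10094. *RGI1* was closest to *THI11* (0.943), whose 1 h difference was 3.08 in CECT10094 and 0.01 in Temohaya-MI26, and *RGI2* to *AIM17* (0.989). *SIP18* was closest to *CAK1* (0.990), *SPG1* to *PUT1* (0.969) and *STF2* to *HSP32* (0.977). *HSP32* and *HSP33* belong to a family of nearly identical genes whose spots can share RNA.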

How the data were processed

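Per the study's methods, the authors scanned spotted 2-colour cDNA arrays in GenePix Pro 6.0 with a global background subtraction, removed flawed spots by hand, normalized ratios in Acuity 4.0 and kept spots with at least 2 of 3 replicates. The deposited values are log2 ratios of Cy5 (sample) to Cy3 (pool), 1 column per condition and the median of 2 or 3 slides. How many slides stand behind a single value is not given. Of 6154 entries, 2 controls were left out, and 5653 of 6152 ORFs matched the reference annotation by locus tag. A deposited table of log2 differences holds the authors' own comparisons, and its 4 columns were not used.

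Differences between columns were computed without further normalization or pseudocount. Calls, lists and correlations were made in Python 3.11.15 with pandas 2.3.3. The limma fit (version 3.58.1, R 4.3.3) took the 4 late columns with 1 residual degree of freedom and an infinite prior. Both steps were tried on simulated data, which says nothing about the spread between real cultures. Alternatives were a limit of 2.58 standard deviations, a fixed difference of 1, the median with a scaled median absolute deviation (MAD), ORFs complete over all columns, quantile normalization, centring of columns on their medians, a robust prior, 8 columns in limma and an adjusted p under 0.10. The 10 genes and the lists were chosen with earlier results of these data known. All 10 genes were named, up to 4 members of each list past the limit in the comparison described, and the ORFs of the likeness rule. *TMA10*, *HOR7* and the genes of further strain gaps were named after their values were seen.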

Additional observations from a re-analysis of the deposited data

Results flagged for a closer look

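Values are given here where the sign of a difference was opposite between strains or stages. None of these contrasts was tested, since each condition is 1 column.

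Late with ethanol, *SIP18* differed by -1.24 in CECT10094 and 0.53 in Temohaya-MI26, a contrast of -1.77 between strains. The contrast was -3.10 for *HSP12* and -1.13 for *DDR2*. From 1 h to late with ethanol, *RGI1* differed by -2.74 in CECT10094 and 0.41 in Temohaya-MI26 (contrast -3.15), and *RGI2* by -1.31 and 0.28 (contrast -1.59). The opposite sign was lost for *HSP12* with centred columns (0.07 in CECT10094), and after quantile normalization for *DDR2* (-0.04 in Temohaya-MI26) and *RGI1* (-0.07 in Temohaya-MI26).

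Ethanol differences at 1 h were above 0 in all 10 genes by their choice, so an opposite sign late depends on the late value alone. In CECT10094 this late value was -1.24 for *SIP18*, -0.69 for *GRE1*, -1.05 for *SPG4*, -0.26 for *SPG1*, -0.41 for *HSP12*, -1.02 for *DDR2*, -1.63 for *MSC1*, -1.78 for *RGI1* and -1.69 for *RGI2*. In Temohaya-MI26 it was -1.23 for *GRE1*, -0.63 for *SPG4*, -0.63 for *SPG1*, -0.27 for *MSC1*, -0.19 for *RGI1* and -0.45 for *RGI2*. The medians of all ORFs late, -0.51 and -0.25, were below 0 too.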

How the results depend on the processing

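No paired analysis was possible because each group is 1 column and the labels carry no replicate numbers. Leaving out replicates was not possible either, since the slides are not separate. The alternatives on the authors' difference table and on promoter windows were not run.

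Of the 10 genes called higher at 1 h in CECT10094 (5), 3 were called at 2.58 standard deviations, 10 at a fixed difference of 1 and 3 after quantile normalization, where their median was 1.495. Late in CECT10094, a fixed difference of 1 called 6 lower instead of 0. The fixed difference ignores the shift of all ORFs, whose median was -0.51. *DDR2*, at -1.02 just past it, stood at percentile 27.1 of all ORFs. The median of the 10 genes, -1.03, was -0.56 with centred columns and -0.52 after quantile normalization. Late in Temohaya-MI26, 1 was called lower at the fixed difference and 2 after quantile normalization, instead of 0. For late minus 1 h without ethanol in CECT10094, 0 were called higher at 2.58 standard deviations and after quantile normalization, 7 at the fixed difference, 3 with the MAD and 2 over ORFs with values in every column, instead of 1. *SPG4*, at 0.989 just short of the fixed difference, was only at percentile 68.34 of all ORFs there. The median of 1.52 was 0.99 with centred columns and 0.53 after quantile normalization. In Temohaya-MI26 8 were called at the fixed difference and 1 with the MAD, instead of 0, and the median of 1.33 was 0.19 after quantile normalization. *STF2*, at 1.015 just past the fixed difference, was at percentile 73.55 of all ORFs in that comparison. With ethanol, the fixed difference called 8 lower in CECT10094 instead of 5, and the median of -2.10 in Temohaya-MI26 was -2.65 after quantile normalization.

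For the strain gaps in single conditions, whose scaled values were added after seeing the data, the median at 1 h with ethanol was -2.23 after quantile normalization instead of -1.68. Late without ethanol, 2 were called lower with the MAD and 0 after quantile normalization instead of 1. Late with ethanol, 1 was called at 2.58 standard deviations and after quantile normalization and 5 at the fixed difference instead of 2, and the median of -1.01 was -0.24 after quantile normalization.

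In limma, the 101 ORFs higher late with ethanol were 25 with centred columns, 7 after quantile normalization and 60 with 8 columns, and the 653 lower were 56 with centred columns and 8 after quantile normalization. Of the 10 genes, 1 was called higher over ORFs with values in every column, with a robust prior and at an adjusted p under 0.10, and 1 lower with a robust prior and at 0.10, instead of 0 each. For the late strain gap, the 5 ORFs higher were 0 with centred columns, after quantile normalization and with 8 columns, 8 with a robust prior and 10 at 0.10. The 38 lower were 0, 0 and 1 with centred columns, quantile normalization and 8 columns, and of the 10 genes 0 were called instead of 1 under each of these. Quantile normalization turned the strain gap of *SIP18* to 0.059, *GRE1* to 0.30, *SPG4* to 0.44, *MSC1* to 0.25 and *RGI1* to 0.003, and centring turned *RGI1* to 0.008. The causes were not tested. Among the 120 differences of the 10 genes, centring gave 5 another sign and quantile normalization 15.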

Other observations

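Apart from the 10 genes, 59 ORFs were called higher at 1 h with ethanol in both strains. Late with ethanol their median difference was -0.65 in CECT10094, with 42 below 0, and 0.01 in Temohaya-MI26, with 29 below 0. Late minus 1 h they were higher without ethanol by a median of 1.99 and 1.80. With ethanol the median was -1.73 in CECT10094, where all 59 were below 0, and -1.29 in Temohaya-MI26, where 51 were. Their 1 h columns are those that chose them.

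Of the genes of respiratory growth, *ACS1*, an acetyl-CoA synthetase gene, was the 1 of 10 measured that was called higher at 1 h in each strain, by 5.21 in CECT10094 and 5.66 in Temohaya-MI26. Late with ethanol, the list had a median of -0.74 in CECT10094, where 8 of 11 measured genes were below 0, and of 0.25 in Temohaya-MI26, where 2 of 10 were, beside -0.51 and -0.25 for all ORFs. In CECT10094 3 were called higher and none lower, and in Temohaya-MI26 2 higher and 1 lower, where 2.76% and 3.04% of all ORFs were called higher and 2.85% and 2.51% lower. *HAP4*, the regulator of respiration, was called higher in both (1.68 and 1.69), as was *CYC1*, the cytochrome c gene (1.29 and 3.07). *COX6* was called higher in CECT10094 (1.61), where *CAT8* (-1.88), *JEN1* (-1.28) and *FBP1* (-1.09) lay within the limits below 0, and *ACS1* lower in Temohaya-MI26 (-2.05). ORFs on chromosomes I, III and the right arm of II, 616 in all, had late ethanol differences 0.37 and 0.47 below the other ORFs in CECT10094 and Temohaya-MI26. At 1 h the offset was -0.04 in CECT10094 and -0.08 in Temohaya-MI26. *ACS1*, *HSP26* and *YBR116C* lie there and none of the 10 genes does. The part of the late offset in the values of *ACS1*, *HSP26* and *YBR116C* was not tested.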
